A study of Mus musculus with 8 samples.

Results

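The genes of oxidative phosphorylation were described in small intestinal crypts and villi of Ctrl and Gli1-Ptgs cKO mice. The rule uses gene symbols alone and no measured value. The rule took the nuclear genes named Nduf, Sdha to Sdhd, Uqcr, Cox4 to Cox8 and Atp5, and the protein-coding genes of the mitochondrial genome, which carry the prefix mt-. The rule found 101 genes, 89 nuclear and 12 mt-. Of these, 99 were among the 11554 genes listed for the crypts (88 nuclear and 11 mt-) and 101 among the 12701 genes listed for the villi. Cox6a2 and mt-Nd4l were listed only for the villi. The nuclear genes comprised 37 subunits and 8 assembly factors of complex I, 4 subunits of complex II, 8 of complex III, 11 of complex IV, 4 tissue isoforms or relatives of complex IV subunits and 17 subunits of complex V. The mt- genes comprised 7 subunits of complex I, 1 of complex III, 3 of complex IV and 1 of complex V. mt-Atp8, which the rule would also take, was listed for neither tissue.

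RNA of epithelial cells freshly taken from the small intestine was sequenced, with 2 libraries for each genotype and tissue. The mice were on a C57BL/6 background. Tamoxifen induced the Cre, and tissue for the in vivo comparison was taken 1 month later. Gli1-Ptgs cKO mice carried Gli1-CreERT2 together with floxed Ptgs1 and Ptgs2, so that both cyclooxygenases were deleted in Gli1+ mesenchymal cells and not in the epithelium that was sequenced. For the Ctrl mice the sample labels give the genotype WT, Gli1-CreERT2 and Rosa26-tdTomato, while the paper describes Ctrl mice with the floxed alleles and no Cre, and the labels and the paper also name different RNA and library kits. Whether Cre and floxed alleles were matched between the genotypes cannot be told from these sources. The cyclooxygenases COX1 and COX2 are enzymes of prostaglandin synthesis and are unrelated to the Cox genes below, which encode cytochrome c oxidase.

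Oxidative phosphorylation takes place in the inner mitochondrial membrane. Complex I, an NADH dehydrogenase, and complex II, succinate dehydrogenase, pass electrons to ubiquinone, complex III passes them on to cytochrome c, and complex IV reduces oxygen with them. Complex V, the ATP synthase, uses the proton gradient built by complexes I, III and IV. Complexes I, III, IV and V are mosaics of subunits from nuclear and mitochondrial genes, and complex II is encoded by nuclear genes alone. Absorptive enterocytes of the villus are rich in mitochondria, and crypts hold the dividing stem and progenitor cells.

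Reads on listed genes ranged from 16853017 to 21121714 in the crypt libraries and from 13477600 to 15751024 in the villus libraries. The 2 Ctrl villus columns held identical values in all 12701 genes and were counted as 1 library, and no test was made in the villi. In the crypts, cKO replicate 1 stood apart from the other 3 libraries in the genes described here, and results are given with and without it. Ptgs1, one of the deleted genes, had normalized counts of 365 and 164 in Ctrl and of 178 and 199 in cKO crypts, which overlapped, and Ptgs2 and Gli1 were not among the listed genes. Summed over the 9 enterocyte markers, the level was 4517 to 6266 reads per 1000000 reads (RPM) in the crypts and 29354 to 33898 in the villi, and over the 7 stem cell markers it was 4947 to 5631 in the crypts and 164 to 392 in the villi. Both lists thus separated the tissues as labelled. A lower summed level in a tissue preparation can come from fewer cells of a type or from less RNA per cell, which cannot be told apart here.

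Several mt- genes have near-identical copies in the nuclear genome, and these are shown first because the copies go with the measured levels. The first 60 bases of mt-Co2, a subunit of complex IV (GRCm38, chrM:7013-7696, plus strand), and of its unprocessed pseudogene Gm28661 (chr1:24614885-24615565, minus strand) were the same, and they had 0 differing bases over the 681 compared. The first 60 bases of mt-Nd3, a subunit of complex I (chrM:9459-9806, plus strand), and of Gm28438 (chr1:24612775-24613119, minus strand) differed at the base in capitals, T3C, counted from 1 at the first base of the mt-Nd3 transcript. That was the only difference over the 345 bases compared.
mt-Co2: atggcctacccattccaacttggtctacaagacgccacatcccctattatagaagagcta
Gm28661: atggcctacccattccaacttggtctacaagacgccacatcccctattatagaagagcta
mt-Nd3: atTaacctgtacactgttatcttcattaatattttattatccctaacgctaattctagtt
Gm28438: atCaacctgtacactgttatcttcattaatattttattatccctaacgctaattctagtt

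Of the 100-base windows of each transcript, 99.9% were also found in another gene for mt-Co3, 99.5% for mt-Co2 and mt-Atp6, 98.5% for mt-Nd4l and 97.6% for mt-Nd3. The share was 60.8% for mt-Nd4, 30.8% for mt-Co1, 3.19% for mt-Nd2 and 0% for mt-Nd1, mt-Nd5, mt-Nd6 and mt-Cytb. In RPM per kilobase of transcript, the 4 crypt-listed genes with over 90 percent of shared windows lay between 19.3 and 147 in the Ctrl crypts, and the other 7 lay between 1664 and 25317. These ranges did not overlap in any of the 7 libraries. The 4 genes together held 0.289% to 0.730% of the mt- reads in the crypts, and the 5 in the villi held 0.398% to 0.561%. In the villi, mt-Nd4l was the lowest of all, with 54.4 normalized counts in Ctrl and 83.3 and 54.1 in the cKO libraries. None of the 6 nuclear copies compared was itself listed in either table. How reads that match several places were counted is not given in the sources used here, and its part in these levels was not tested. The values of these 5 genes, and more weakly those of mt-Nd4 and mt-Co1, are therefore uncertain as levels. Among the 89 nuclear genes, 18 shared over 10 percent of windows with another gene and 56 shared none. The highest shares were 86.4% for Atp5g2 and 69.0% for Atp5l, and for Ndufa13 the share was 24.0%, all of it with Tssk6, which overlaps it on the opposite strand.

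**Figure D1:**
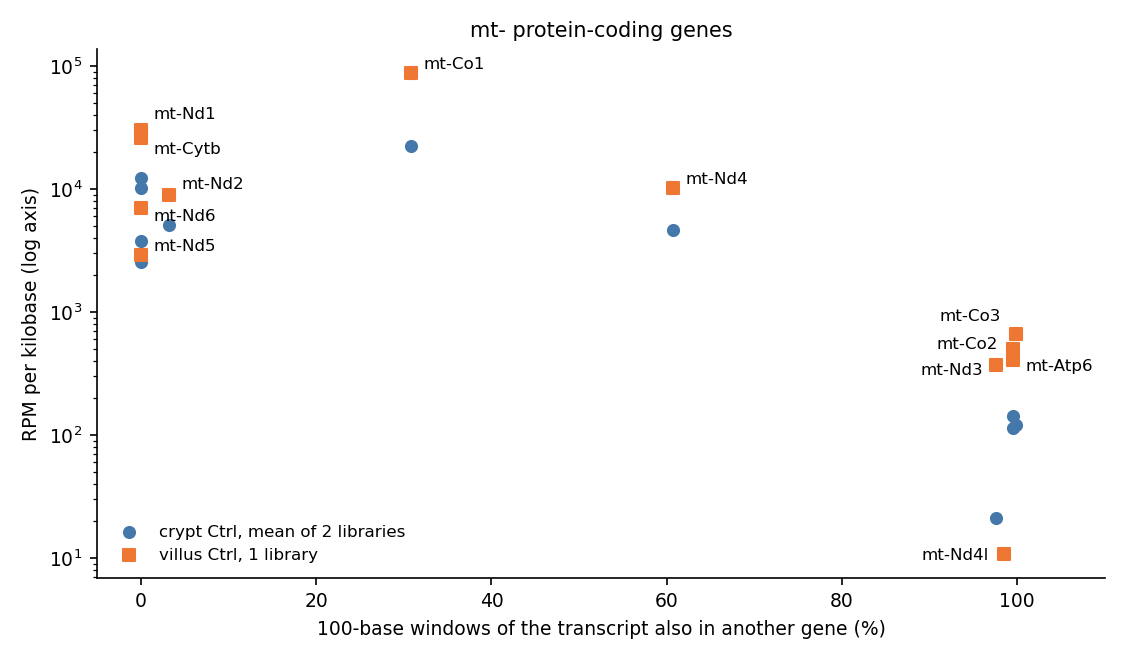
Level of each mt- protein-coding gene, in RPM per kilobase on a log axis, against the share of its 100-base windows that another gene also holds. Circles are the mean of the 2 Ctrl crypt libraries and squares the 1 Ctrl villus library. The genes with more than 97% of shared windows lie at or below 669 in the villi, where the others lie at or above 2889.

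The nuclear genes were also read by their promoters. Whether the strings below go with any difference between libraries was not tested. Promoters from RefSeq (GRCm38.p6, 250 bases before to 50 after the start) were matched for 73 of the 89 nuclear genes. A core of the NRF1 motif, CGCATGCG, was found on either strand in 11 of the 73 genes (15.1%), against 4.16% of the 10203 listed genes with a promoter and 2.07% of all 27025 genes in the table. CCGGAAG, a core of ETS motifs, was found in 19 genes (26.0%), against 19.7% of listed genes and 9.93% of all genes. AAGATGGCG, from the YY1 motif, was found in 8 genes (11.0%), against 3.52% and 1.64%. None of these 3 strings contains another. NRF1, the ETS factor GABP and YY1 are known as regulators of nuclear genes for mitochondrial proteins, and a match is a string of letters and not a measured binding site. The 250 bases upstream of Atp5j hold all 3 strings, those of Cox6a1 hold the first 2, and those of Atp5k, the nuclear gene with the widest difference between the cKO crypt libraries, hold the first. Atp5j and Cox6a1 were chosen for the strings they hold, and Atp5k for its difference. The upstream bases of Ndufa13, the nuclear gene with the largest crypt difference, hold none of the strings. Motifs are in capitals, and the last string in Cox6a1 is on the opposite strand. The windows are chr16:84834977-84835226 (minus strand) for Atp5j, chr5:115348959-115349208 (minus strand) for Cox6a1 and chr5:108434400-108434649 (minus strand) for Atp5k.
Atp5j: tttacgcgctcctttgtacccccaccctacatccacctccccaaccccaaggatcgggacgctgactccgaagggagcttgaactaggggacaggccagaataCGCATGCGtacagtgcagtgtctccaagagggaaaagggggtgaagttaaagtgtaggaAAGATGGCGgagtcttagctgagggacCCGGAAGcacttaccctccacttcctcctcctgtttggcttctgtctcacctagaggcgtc
Cox6a1: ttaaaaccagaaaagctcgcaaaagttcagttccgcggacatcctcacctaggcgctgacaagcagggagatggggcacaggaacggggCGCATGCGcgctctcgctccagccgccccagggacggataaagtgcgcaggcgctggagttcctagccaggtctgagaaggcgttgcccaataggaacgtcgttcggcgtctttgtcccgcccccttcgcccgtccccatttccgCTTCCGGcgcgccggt
Atp5k: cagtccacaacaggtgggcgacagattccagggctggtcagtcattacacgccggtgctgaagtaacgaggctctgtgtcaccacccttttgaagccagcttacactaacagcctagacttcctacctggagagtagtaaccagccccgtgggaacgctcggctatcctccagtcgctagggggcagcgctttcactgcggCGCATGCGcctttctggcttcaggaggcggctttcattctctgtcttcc

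As a share of all reads on listed genes, the nuclear and the mt- genes did not separate Ctrl from cKO crypts. The nuclear genes took 1.74% and 1.58% of the reads in the Ctrl crypts, against 2.57% and 1.46% in the cKO crypts. The cKO libraries thus lay on either side of the Ctrl libraries. The mt- genes took 6.53% and 8.82% in the Ctrl crypts, against 2.61% and 11.3% in the cKO crypts. Over the 4 libraries the order of the mt- shares was the reverse of the order of the nuclear shares. The nuclear share averaged 1.66% ± 0.108 (SD, n = 2) in Ctrl, and the cKO average was 2.02% ± 0.788 (SD, n = 2). The mt- share averaged 7.68% ± 1.62 (SD, n = 2) in Ctrl, and the cKO average was 6.96% ± 6.15 (SD, n = 2). The exact permutation test gave p = 1 (two-sided) for both shares and for their ratio, and with 2 libraries against 2 the smallest p it can give is 0.33. Without cKO replicate 1 the difference in the nuclear share, cKO minus Ctrl, turned from 0.356 to -0.201 percentage points and that in the mt- share from -0.713 to 3.64.

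The reads on mt- genes per read on nuclear genes showed the spread more plainly. The ratio was 3.76 and 5.57 in the Ctrl crypts, against 1.02 and 7.76 in the cKO crypts. In the villi it was 6.54 in Ctrl and 7.76 and 11.4 in the cKO libraries. Both cKO villus values were above Ctrl, and the cKO crypts held the lowest and the highest crypt values. The villus nuclear share was 3.47% in Ctrl and 2.49% and 2.30% in the cKO libraries, below Ctrl in both. The villus mt- share was 22.7% in Ctrl and 19.3% and 26.3% in the cKO libraries, on both sides of Ctrl. With the mt- genes left out of the total, the villus nuclear share was 4.49% in Ctrl and 3.09% and 3.13% in the cKO libraries.

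**Figure D2:**
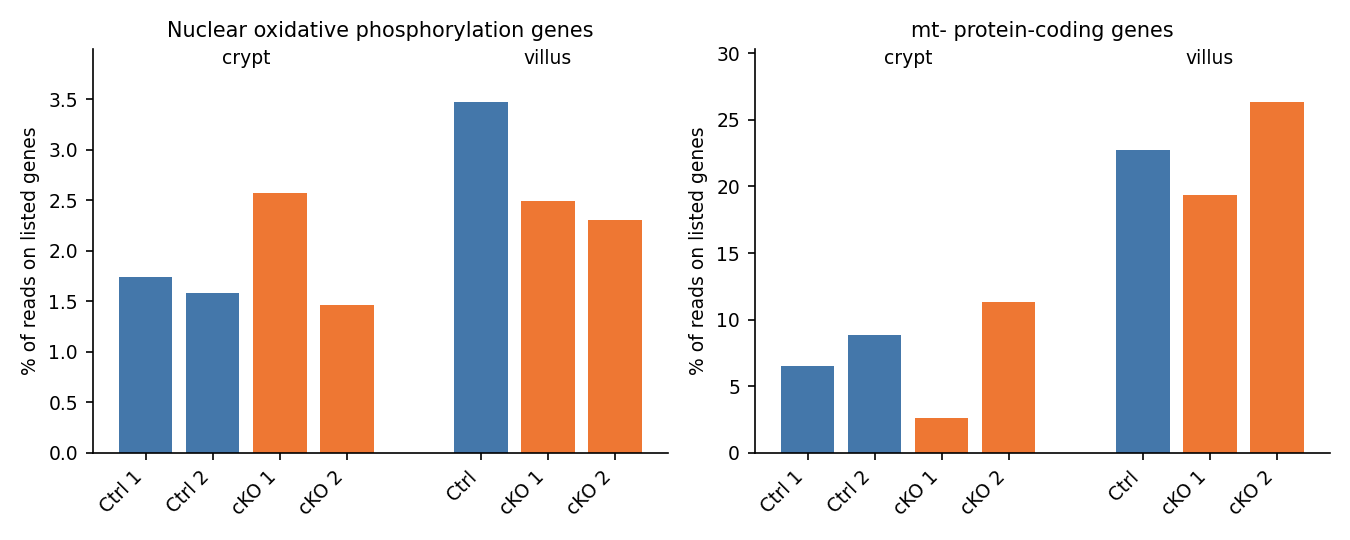
Percent of the reads on listed genes that fell on nuclear oxidative phosphorylation genes (left) and on mt- protein-coding genes (right), one bar per library, Ctrl in blue and cKO in orange. In the crypts the cKO libraries lie on both sides of Ctrl (2.57% and 1.46% nuclear, 2.61% and 11.3% mt-), and in the villi both cKO libraries are below Ctrl in the nuclear share.

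In the crypts, no oxidative phosphorylation gene passed the test between cKO and Ctrl. All 99 listed genes passed the filter on low values, a mean normalized count of at least 1. limma-trend on log2(normalized count + 1) over all 11554 genes, without a block, called 0 of the 99 genes at an unadjusted p under 0.01 with a log2 fold change beyond 1, the thresholds the study used, and 0 at an adjusted p under 0.05. Over all genes the first rule called 0.173% as higher and 0.00866% as lower in cKO, and the adjusted rule called 0%. At an unadjusted p under 0.05, limma-trend gave 0 of the 99 genes and 73 of all 11554. edgeR's quasi-likelihood test on the recovered reads called 0 and had 4 at that level, against 23 and 108 of 11553 genes. DESeq2 called 4, all higher, and had 19, against 65 in either direction and 227 of all 11554 genes. At an adjusted p under 0.05 DESeq2 had 0 of the 99 and 11 of all genes. Fold changes here are on the log2(normalized count + 1) scale. Both cKO libraries were above both Ctrl libraries for 5 of the 99 genes, Ndufa13, Ndufs6, Atp5md, Cox8a and mt-Nd3, against 9.73% of all genes, and both were below for 0, against 11.3%.

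The absence of calls went with cKO libraries that differed from each other. In cKO replicate 1 all 88 nuclear genes were above the mean of the Ctrl libraries, with a median log2 difference of 1.03, and 1 of the 11 mt- genes was above it, with a median of -0.87. In cKO replicate 2 the pattern was the other way round, with 10 of the 88 nuclear genes above Ctrl (median -0.20) and all 11 mt- genes above it (median 0.46). Of all 11554 genes, 5783 were above the Ctrl mean in cKO replicate 1 and 5553 in cKO replicate 2. The medians of the 2 libraries together were 0.40 for the nuclear genes and -0.27 for the mt- genes, and the median of all genes was -0.01. Without cKO replicate 1 these medians turned to -0.20 and 0.46. Without cKO replicate 2 they were 1.03 and -0.87. Comparisons that leave 1 library in a group are given here by their differences alone, without p-values or calls. Without Ctrl replicate 2 the mt- median was 0.04, and without Ctrl replicate 1 it was -0.58. The directions in the crypts thus turned on which cKO library was used. The summed level of the 6 Paneth cell markers was 38041 RPM in cKO replicate 1 and 21035 to 25583 in the other 3 crypt libraries, and all 6 were above the Ctrl mean in cKO replicate 1 and 0 in cKO replicate 2. Their part in the result was not tested.

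**Figure D3:**
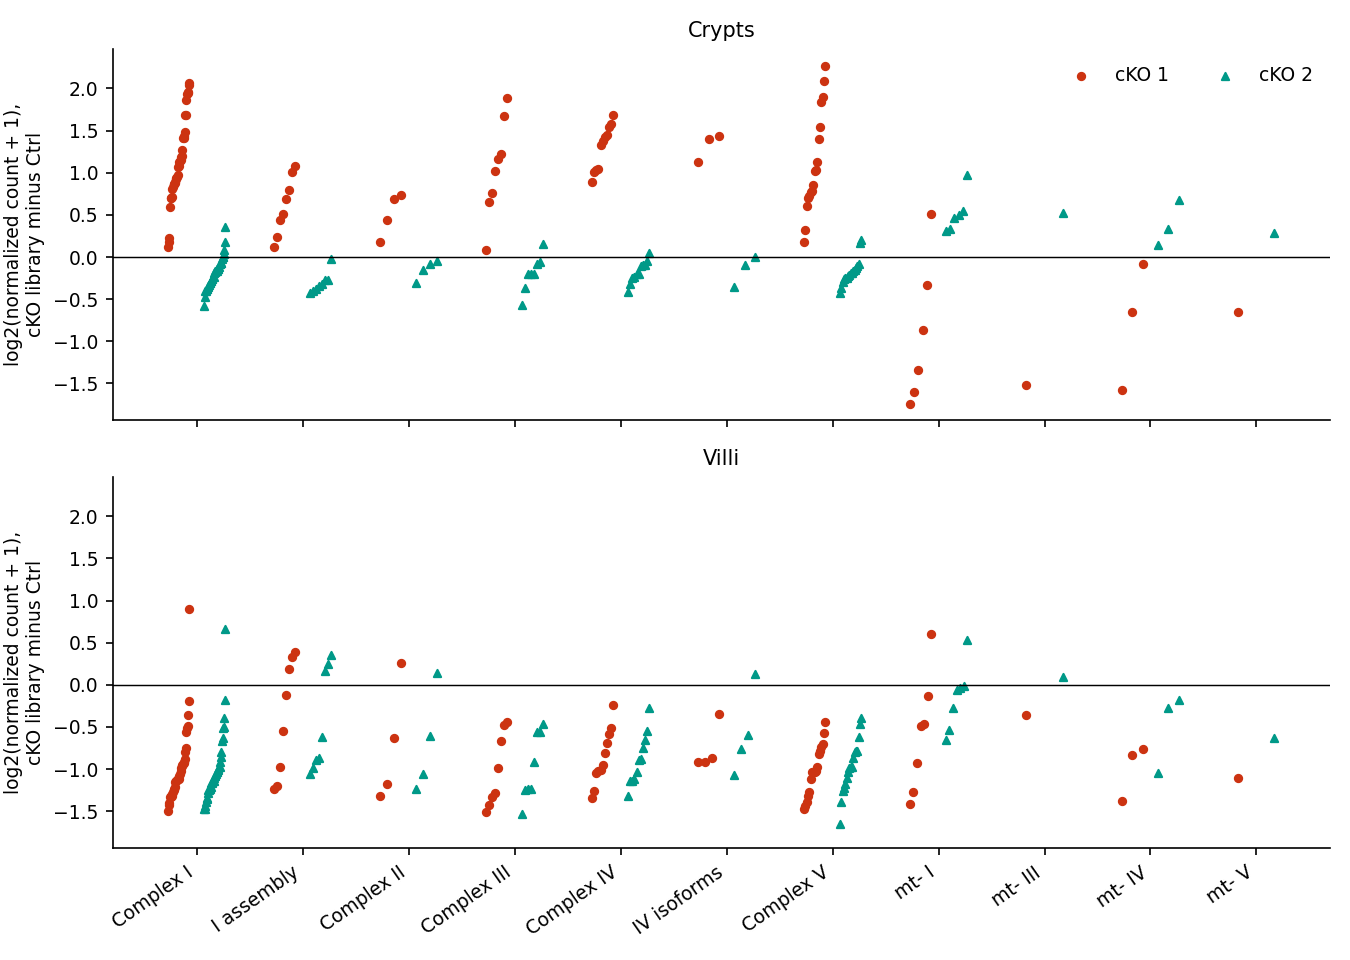
log2(normalized count + 1) of each gene in cKO replicate 1 (circles) and cKO replicate 2 (triangles) minus Ctrl (mean of 2 libraries in the crypts, 1 library in the villi), grouped by complex; the genes of a group are ordered by value. In the crypts all 88 nuclear genes are above 0 in cKO replicate 1 and 10 are in cKO replicate 2, against 5783 and 5553 of all 11554 genes. In the villi the 2 cKO libraries fall together, with 83 of 89 nuclear genes below Ctrl in both, against 44.2% of all genes.

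By complex, the nuclear subunits of complex IV had the highest crypt median, a log2 difference of 0.66 over 11 genes, and the complex I assembly factors the lowest, 0.11 over 8 genes. Complex I subunits had 0.41 over 37, complex III 0.34 over 8, complex V 0.31 over 17 and complex II 0.17 over 4. In cKO replicate 1 alone the medians were 1.38 for complex IV, 1.10 for complex III, 1.07 for complex I subunits, 1.02 for complex V, 0.60 for the assembly factors and 0.57 for complex II. In cKO replicate 2 all of these medians were between -0.34 and -0.12. No difference between complexes was tested.

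The 5 nuclear genes with the largest crypt differences encode small subunits. Ndufa13, a complex I subunit also known as GRIM-19, was at 523 and 640 normalized counts in Ctrl and at 2421 and 739 in cKO. The log2 fold change of 1.21 ± 0.53 (SE) had a limma-trend p of 0.058 (adjusted p 1.00), the smallest p of the 99 genes, and over the shared stretch its reads cannot be told from those of Tssk6. Atp5e, the epsilon subunit in the central stalk of complex V, was at 1329 and 978 in Ctrl and 4857 and 1278 in cKO, with a log2 fold change of 1.13 ± 0.58 (SE). Its cKO replicate 2 value was within the Ctrl range.

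Atp5k, the e subunit of the membrane part of complex V, was at 181 and 140 in Ctrl and at 770 and 151 in cKO, a log2 fold change of 1.09 ± 0.72 (SE). Ndufs6, an accessory subunit of the matrix arm of complex I, was at 503 and 405 in Ctrl and at 1750 and 511 in cKO, 1.06 ± 0.55 (SE). Atp5md, a small subunit of the complex V dimer, was at 622 and 601 in Ctrl and 2292 and 702 in cKO, 1.05 ± 0.52 (SE). In each of these genes 1 library, cKO replicate 1, was far above the other 3, which lay close together. Cox8a, a small subunit of complex IV that was singled out after its values were seen, was at 2461 and 2354 in Ctrl and 6257 and 2493 in cKO.

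The 5 nuclear genes with the smallest differences were Ndufaf7 (-0.02), Ndufs1 (-0.01), Ndufa10 (0.01), Atp5b (0.03) and Ndufaf6 (0.03). Ndufs1 encodes the large iron-sulfur subunit of complex I. It was at 3673 and 3799 normalized counts in Ctrl and at 4052 and 3375 in cKO. Atp5b, the catalytic beta subunit of complex V, was at 38880 and 40913 in Ctrl and 45150 and 36508 in cKO, so that the cKO libraries lay on either side of Ctrl.

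Ndufa10, an accessory subunit of complex I, was at 4078 and 4100 normalized counts in Ctrl and at 4633 and 3657 in cKO. The assembly factors Ndufaf7 and Ndufaf6 were lower, at 648 and 564 against 710 and 498, and at 313 and 243 against 373 and 212. In all 5, cKO replicate 1 was the highest of the 4 libraries and cKO replicate 2 the lowest.

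Among the mt- genes the crypt differences ran from -0.62 for mt-Nd4 to 0.53 for mt-Nd3. mt-Co1, the catalytic subunit of complex IV and the most abundant of them, was at 547544 and 743707 normalized counts in Ctrl and at 214320 and 1018531 in cKO. mt-Cytb, the cytochrome b of complex III, was at 233991 and 292155 in Ctrl and at 91118 and 376474 in cKO. mt-Nd1, a membrane subunit of complex I, was at 143666 and 222562 in Ctrl and at 98141 and 224926 in cKO. In these 3 genes cKO replicate 1 was the lowest library and cKO replicate 2 the highest.

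mt-Nd4 was at 106655 and 130965 normalized counts in Ctrl and at 35395 and 167292 in cKO, mt-Nd2 at 79466 and 117283 against 38254 and 132785, and mt-Nd5 at 55711 and 119118 against 26885 and 160503. All 3 are membrane subunits of complex I with the same order of libraries. mt-Nd6, the one gene of the set on the other strand of the mitochondrial genome, was at 27346 and 46285 in Ctrl and at 28211 and 44145 in cKO, within the Ctrl range. As the strand setting of the counting is not given in the sources used here, its reads cannot be told from antisense reads of the same region.

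The genes with over 90 percent of shared windows had far lower counts. mt-Co3 was at 1466 and 2091 normalized counts in Ctrl and at 1653 and 1933 in cKO, and mt-Co2 at 1723 and 1911 against 1152 and 2282. mt-Atp6, the a subunit of complex V, was at 1226 and 1674 in Ctrl and at 912 and 1742 in cKO. mt-Nd3 was at 145 and 128 in Ctrl and at 195 and 199 in cKO, and it was the one mt- gene above Ctrl in cKO replicate 1. As shares of all mt- reads, mt-Co1 held 45.7% and 44.3% in the Ctrl crypts, against 40.0% and 47.8% in the cKO crypts, and mt-Nd1 held 11.98% and 13.3% against 18.3% and 10.6%.

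Transcript length went with these differences. The principal transcripts of the 88 nuclear genes in the crypts had a median length of 870 bases, against 3009 over all listed genes. In cKO replicate 1 the log2 difference from Ctrl was lower the longer the transcript among the 88 genes (Spearman's rho -0.64, a description over genes that share one library) and over all 11546 genes with a length (-0.67). Its median was 1.40 in the 30 shortest genes, up to 682 bases, and 0.70 in the 29 longest, of at least 1231 bases. In cKO replicate 2 rho was 0.06 among the nuclear genes and 0.33 over all genes. When a smooth curve of the value on transcript length was subtracted from each library, the median difference of the nuclear genes was 0.24 in cKO replicate 1 and -0.07 in cKO replicate 2, and that of the mt- genes was -1.77 and 0.61. Over both libraries the nuclear median went from 0.40 to 0.10 with this correction and the mt- median went from -0.27 to -0.63. With it 0 of the 99 genes were called, against 25 of all 11546. Why length and difference went together was not tested.

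**Figure D4:**
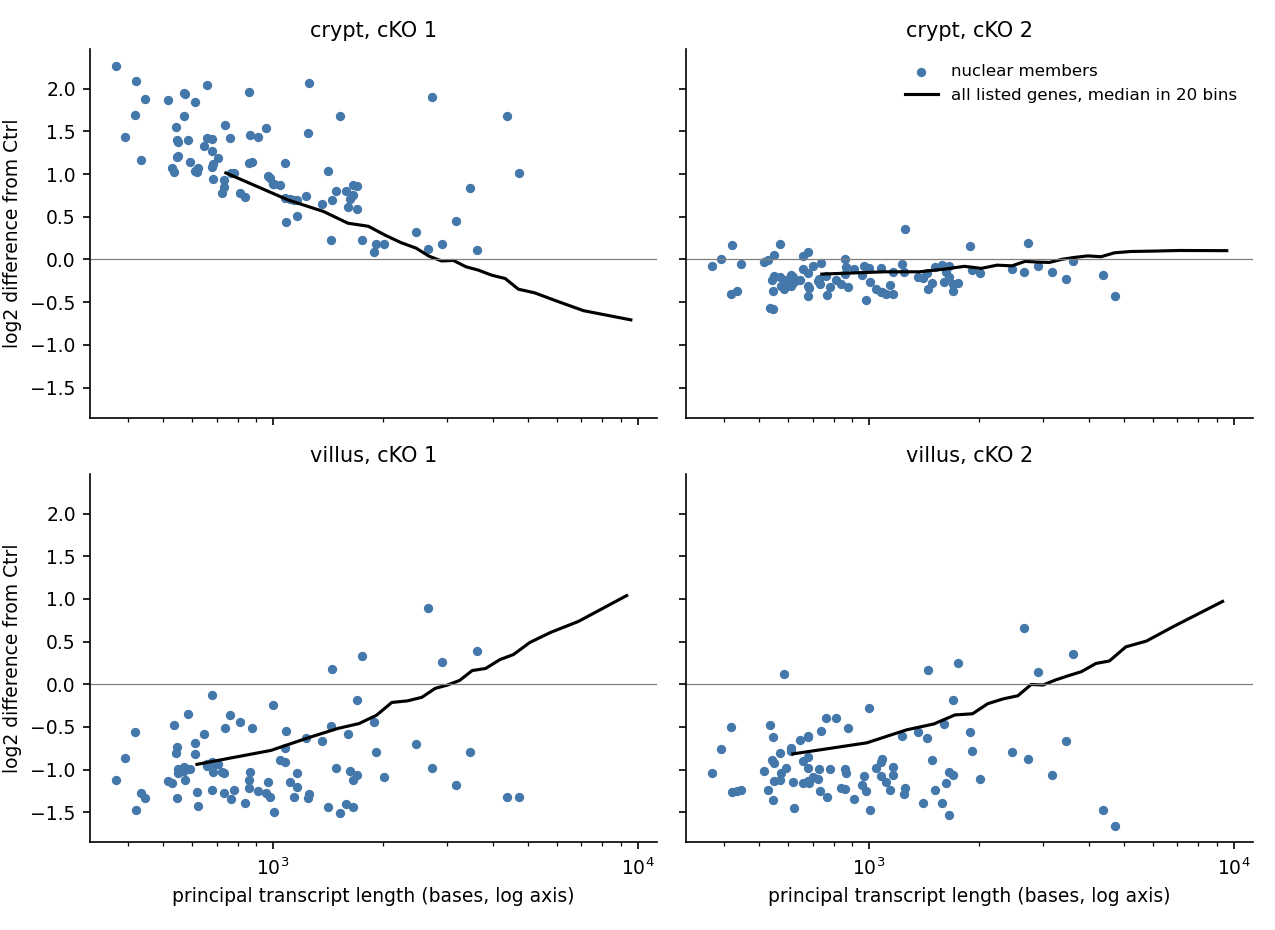
log2 difference from Ctrl against the length of the principal transcript (log axis) for the nuclear genes (points), with the median of all listed genes in 20 bins of length (line), for each cKO library. Short transcripts are high in crypt cKO replicate 1 (rho -0.64 over 88 genes), and in the villi the line is higher at longer lengths while the nuclear genes stay near -1 (rho 0.09 and 0.07 over 89 genes).

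In the villi the nuclear genes were lower in both cKO libraries. Both cKO values were below Ctrl for 83 of 89 nuclear genes, against 44.2% of all genes, and above it for 5, against 43.7%. The median log2 difference was -1.02 (-1.02 in cKO replicate 1 and -0.99 in cKO replicate 2), and that of all genes was -0.01. For 48 of the 89 genes both were below and the mean log2 difference was under -1, against 9.4% of all genes, and for 0 both were above with a difference over 1, against 13.4%. These are values against 1 Ctrl library, with no replicate check and no test. As for the mt- genes, 9 of 12 were below Ctrl in both cKO libraries with a median of -0.51 (-0.80 and -0.23), and 1, mt-Co3, passed -1.

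This result moved with the scaling and with transcript length. Scaled by library size alone, the median of all genes shifted from -0.01 to 0.42, the nuclear median was -0.58, 75 nuclear genes were below and 8 above, and of the mt- genes 4 were below and 4 above. Of all 12701 genes, 3081 were then below and 7956 above. Each scaling multiplies a library by 1 factor. The distance of the nuclear genes from the all-gene median, about 1 log2 unit, is therefore nearly the same under both by construction and is no check. After subtraction of the length curve the nuclear median was -0.27, with 57 of 89 below and 19 above Ctrl in both libraries, and with principal transcript lengths it was -0.19, with 54 below and 25 above. Of all 12692 genes with a length, 5516 were below and 5223 above after the former, and 5544 and 5223 after the latter. The mt- median turned to 0.43 and 0.33 under these corrections, so that its direction is not fixed by these data. The summed level of the 8 leukocyte markers was 1435 RPM in the Ctrl villi and 589 and 569 in the cKO villi, with 5 of 8 below Ctrl in both cKO libraries and 1 above. That of the 7 stem cell markers was 164 in Ctrl against 392 and 286, with 5 of 7 above and 1 below. That of the 9 enterocyte markers was 32301 in Ctrl against 33898 and 29354, with 6 of 9 below and 1 above. Their part in the lower nuclear genes was not tested.

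Lower values in the cKO villi were found in all 5 complexes. All 17 nuclear subunits of complex V, all 8 of complex III and all 11 of complex IV were below Ctrl in both cKO libraries, with medians of -1.01, -1.11 and -0.92. Of the 37 complex I subunits 36 were below, with a median of -1.07, and 25 of them by more than 1. Of the 4 complex II subunits 3 were below and of the 8 complex I assembly factors 5.

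The 5 lowest were Atp5g1, Ndufs8, Uqcrc1, Ndufb7 and Atp5d. Atp5g1, which encodes the c subunit of the rotor ring of complex V, was at 6288 normalized counts in Ctrl and at 2518 and 1994 in the cKO libraries, a log2 difference of -1.49. Ndufs8, an iron-sulfur subunit of complex I, was at 3556 in Ctrl and at 1262 and 1282, a difference of -1.48. Uqcrc1, a core subunit of complex III, was at 26504 in Ctrl and at 9825 and 9179, a difference of -1.48.

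Ndufb7, an accessory subunit of complex I, was at 4131 normalized counts in Ctrl and at 1534 and 1517 in the cKO villi (-1.44). Atp5d, the delta subunit of complex V, was at 21918 and at 8085 and 8352 (-1.42). In each of these genes the cKO values lay close together and well below the Ctrl value.

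The 5 highest were Ndufs1, Ndufaf4, Ndufaf7, Sdha and Ndufaf1, and they were the only nuclear genes above Ctrl in both cKO villus libraries. Ndufs1 was at 972 normalized counts in Ctrl and at 1811 and 1542 in cKO, a log2 difference of 0.78. Sdha, the flavoprotein of complex II, was at 6698 in Ctrl and at 8044 and 7386 (0.20), while its partner Sdhb was at 12866 and at 5169 and 5474 (-1.27). The assembly factors Ndufaf4, Ndufaf7 and Ndufaf1 differed by 0.37, 0.29 and 0.17. Sdhc and Sdhd, the membrane anchors of complex II, differed by -1.12 and -0.62.

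Of the mt- genes in the villi, mt-Co1 was at 2276990 normalized counts in Ctrl and at 1279515 and 2006430 in cKO, and mt-Cytb at 504485 and at 394910 and 538026. mt-Nd1 was at 492047 and at 258608 and 312798, and mt-Nd6 at 61169 and at 25276 and 50471. mt-Nd5 was at 89034 and at 80919 and 128852, on both sides of Ctrl. cKO replicate 2 was above cKO replicate 1 in all of these. mt-Nd2 and mt-Nd4 differed by -0.25 and -0.28.

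Among the mt- genes with over 90 percent of shared windows, mt-Co3 was at 8857 normalized counts in the Ctrl villi and at 3406 and 4298 in the cKO villi, a log2 difference of -1.21. mt-Nd3 was at 2200 and at 824 and 1520 (-0.97), mt-Atp6 at 4664 and at 2170 and 2998 (-0.87), and mt-Co2 at 5763 and at 3386 and 4770 (-0.52). These 4 were below Ctrl in both libraries, and the fifth, mt-Nd4l, was above Ctrl in cKO replicate 1 and next to it in cKO replicate 2 (0.30).

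Levels between genes were compared per length, in RPM per kilobase of principal transcript, as the mean of the 2 Ctrl crypts. The ranks are among the nuclear subunits of each complex, without the tissue isoforms. In complex V Atp5b (1114) and Atp5a1 (834), which encode the beta and alpha subunits of the catalytic head, were highest, and Atp5md (11.99) and Atp5k (23.2) lowest. In complex IV Cox4i1 (590) and Cox6a1 (382) were highest and Cox5b (88.7) and Cox5a (113) lowest. In complex III Uqcrc1 (436) and Uqcrh (332) were highest and Uqcr11 (72.9) and Uqcrq (79.2) lowest. In complex I Ndufb2 (4.56) and Ndufb6 (8.58) were lowest. The 4 complex II genes were at 286 (Sdhb), 284 (Sdhd), 219 (Sdha) and 109 (Sdhc). Low values can rest on the transcript chosen: the principal transcript of Ndufb2 has 4371 bases and that of Atp5md 2733.

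The mt- genes took a larger share of the reads in every villus library than in any crypt library, and the nuclear genes did so in the Ctrl villi. The 2 tissues were tabulated and normalized separately, so levels were set side by side in RPM, counted over the 11227 genes listed for both, without a test. The 88 nuclear genes summed to 17398 and 15864 in the Ctrl crypts, against 25785 and 14615 in the cKO crypts, and to 34839 in the Ctrl and 25011 and 23118 in the cKO villi. Both cKO villus sums were below that of crypt cKO replicate 1 and above the other 3 crypt sums. The 11 mt- genes summed to 65444 and 88380 in the Ctrl crypts, 26196 and 113369 in the cKO crypts, and 227940, 194195 and 264508 in the villi, where all 3 libraries were above all 4 crypt libraries.

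All 3 villus libraries were above all 4 crypt libraries for 28 of the 88 nuclear genes and 9 of the 11 mt- genes, against 11.1% of all genes. They were all below for 5 nuclear genes, Ndufaf1, Ndufaf4, Ndufaf6, Ndufaf7 and Ndufs1, against 52.3% of all genes. The median log2 difference of the nuclear genes between Ctrl villi and Ctrl crypts was 1.25, that of the mt- genes 1.61 and that of all genes -1.06. In the cKO libraries these medians were 0.32, 1.74 and -0.56. No length correction was made between the tissues, and the part of transcript length in these differences was not tested. With the mt- genes left out of the total, the Ctrl median of the nuclear genes was 1.51, 45 nuclear genes were above and 5 below, and of all genes other than mt- 15.7% were above and 42.6% below.

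The complexes differed in this. Complex IV nuclear subunits summed to 1937 and 1597 RPM in the Ctrl crypts, 3862 and 1503 in the cKO crypts, and 6348, 4581 and 4155 in the villi, with all villus libraries above all crypt libraries. Complex I subunits summed to 3493, 3073, 5609 and 2821 in the crypts and to 6832, 4724 and 4331 in the villi, where the cKO villi were below crypt cKO replicate 1. The complex I assembly factors went the other way, at 203, 177, 244 and 160 in the crypts and 138, 127 and 119 in the villi. Complex II subunits summed to 1689, 1628, 2096 and 1502 in the crypts and 2264, 1943 and 1805 in the villi, which overlapped.

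**Figure D5:**
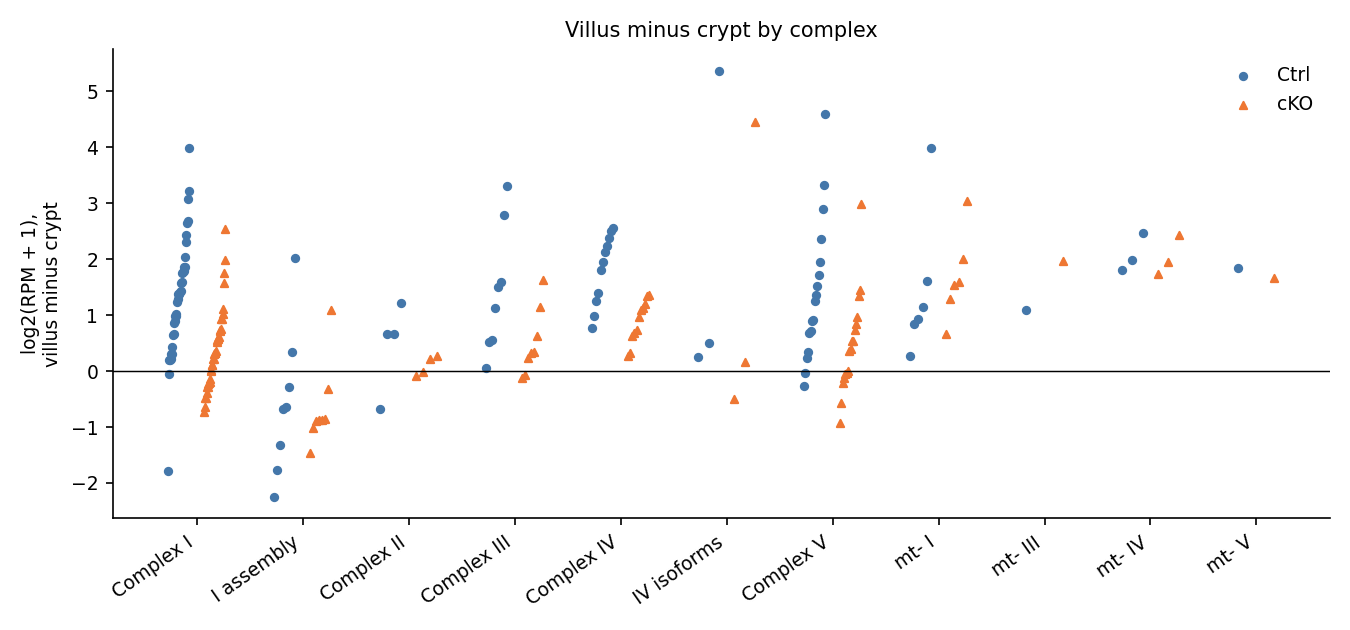
log2(RPM + 1) in villus minus crypt for each gene, in Ctrl (circles) and cKO (triangles), grouped by complex. All complex IV subunits are above 0 in both genotypes, the complex I assembly factors are mostly below 0 (Ctrl median -0.66), and Cox7a1 is the highest point at 5.37 in Ctrl.

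The gene with the widest tissue difference was Cox7a1, the isoform of complex IV subunit VIIa best known from heart and skeletal muscle. It was at 3.22 and 3.37 RPM in the Ctrl crypts, 8.20 and 3.27 in the cKO crypts, 176 in the Ctrl villi and 136 and 135 in the cKO villi. Its ubiquitous counterpart Cox7a2 was present in both tissues, and per length Cox7a1 made up 4.18% to 4.73% of the sum of both in the 4 crypt libraries and 41.3%, 42.8% and 43.6% in the 3 villus libraries. The share was thus nearly the same in Ctrl and cKO within each tissue. Of 6 smooth muscle markers, 0 were listed for the crypts and 2 for the villi, Acta2 at 18.5, 7.65 and 5.80 normalized counts and Des at 19.7, 6.88 and 15.5 in Ctrl and the 2 cKO libraries, where Cox7a1 was at 2968, 1631 and 1753. Of the other isoforms, Cox6a2 was at 31.3 normalized counts in the Ctrl villi and at 16.1 and 20.3 in cKO. Cox6b2 was at 86.2, 34.2, 145 and 42.5 in the crypts and at 63.7, 49.7 and 69.5 in the villi. Cox7a2l, a factor for complexes III and IV in supercomplexes, was at 3825 and 3179 in the Ctrl and 7613 and 3257 in the cKO crypts, and at 4457, 2369 and 2122 in the villi.

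Other genes of the pathway were followed by lists. None of the genes described next passed the crypt test. Cycs, the electron carrier cytochrome c, was at 2102 and 2083 normalized counts in the Ctrl and 3110 and 2023 in the cKO crypts, and at 9795 in the Ctrl and 4668 and 5383 in the cKO villi. Cyc1, the cytochrome c1 of complex III, was at 8951 and 8774 against 13493 and 8356 in the crypts, and at 15628 against 7083 and 6521 in the villi. Both were below Ctrl in the cKO villi, as the nuclear subunits were.

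Over all genes, 9.73% were above and 11.3% below Ctrl in both cKO crypts, and 43.7% and 44.2% in both cKO villi, beside which the counts of the lists are read. Of 30 listed assembly factors of complexes II to V, 4 were above and 4 below Ctrl in both cKO crypts, with a median of 0.21, and in the villi 26 of 31 were below and 1 above, with a median of -0.54. Of 13 citric acid cycle enzymes, 0 were above and 3 below in the crypts (median 0.07), and 10 were below and 3 above in the villi (median -0.50).

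Of 19 genes for transcription, replication and RNA stability in mitochondria, 3 were above and 3 below in the crypts (median 0.04), and 5 were below and 10 above in the villi (median 0.21). Summed, they were at 839 to 945 RPM in the crypts and at 185, 327 and 291 in the villi, and 17 of the 19 were lower in all villus libraries than in all crypt libraries, as 52.3% of all genes were. Lrpprc, which stabilises mitochondrial mRNA, was at 303, 260, 248 and 243 RPM in the crypts and at 25.7, 65.1 and 51.6 in the villi. For the mt- genes the order was the opposite in 9 of 11. Tfam, which packages and transcribes mitochondrial DNA, was at 2261 and 2042 normalized counts in the Ctrl and 2851 and 1878 in the cKO crypts, and at 364 in the Ctrl and 430 and 472 in the cKO villi. Polrmt, the mitochondrial RNA polymerase, was at 987 and 1111 against 1229 and 1067 in the crypts and at 396 against 391 and 274 in the villi.

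Of the 9 transcriptional regulators, 1 was above and 1 below in the cKO crypts, Esrra and Ppargc1a, and in the villi 7 were above and 2 below, against the all-gene shares of 43.7% and 44.2%. The 1 and 1 of 9 in the crypts are near the shares of all genes there. Esrra, a nuclear receptor that regulates genes of energy metabolism, was at 1714 and 1925 normalized counts in the Ctrl and at 4210 and 2199 in the cKO crypts, and at 8414 in the Ctrl and 5052 and 4449 in the cKO villi. It was the one regulator higher in all villus than in all crypt libraries, at 499.7 RPM in the Ctrl villi and 93.6 and 101 in the Ctrl crypts. Ppargc1a, a coactivator of mitochondrial biogenesis, was at 546 and 643 in the Ctrl and 370 and 545 in the cKO crypts, and at 416 in the Ctrl and 674 and 473 in the cKO villi.

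The remaining regulators were read by their villus values. Gabpb2 was at 166 normalized counts in Ctrl and at 557 and 510 in cKO, a log2 difference of 1.68. Ppargc1b (1.04), Pprc1 (1.02), Gabpa (0.81), Gabpb1 (0.56) and Yy1 (0.13) were also above Ctrl in both cKO libraries, and Nrf1 was at 254 against 252 and 245. These regulators have long transcripts, with a median principal length of 4987 bases over the 9. Over all genes the villus difference went with length (rho 0.54 and 0.51), and its part in the regulators' values was not tested. In the crypts their log2 differences ran from -0.40 to 0.74.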

How the data were processed

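RNA was sequenced from Ctrl and Gli1-Ptgs cKO small intestinal crypts and villi, 2 libraries per group by the labels. The authors aligned reads with STAR to mm10 and used DESeq2. The deposited signal is the gene count divided by the DESeq2 size factor. It is accompanied by the authors' fold changes and p-values, which were not used. Dividing by each library's smallest step gave whole reads for 100% of values, within 0.001 reads. Reads on listed genes were 13477600 to 21121714 per library. The identical Ctrl villus columns were counted as 1 library. Unmapped sample columns numbered 0.

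Crypt libraries were compared by limma-trend (limma 3.58.1 under R 4.3.3) without a block. The fit used log2(normalized value + 1) of every gene whose mean was 1 or more, with Benjamini-Hochberg adjustment. Because the tables hold normalized values, tests on counts (edgeR 4.0.16, DESeq2 1.42.0) were alternatives. With 2 libraries per group, p-values measure only the spread between these samples, which may be partly technical. Fits were tested on simulated data. Shares were compared with an exact permutation test. Transcript lengths, pseudogenes and coordinates came from GENCODE M21 and promoters from RefSeq.

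The genes named are all mt- genes, the 5 nuclear genes with the largest and the 5 with the smallest difference in each tissue, the 2 highest and 2 lowest per length in each complex, complex IV isoforms, Cycs, Cyc1, Tfam, Polrmt, Lrpprc and the regulators. The highest complex I values per length are not reported here. The rule for members reads symbols only, but it and the lists were set with earlier results of these data known. Alternatives were another scaling, filter, pseudocount, total or length correction, the replicate block, structural subunits alone and leaving out each library. The length correction by principal transcript and the total without mt- genes for villi against crypts were chosen after seeing the data.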

Additional observations from a re-analysis of the deposited data

Results flagged for a closer look

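For 7 genes both cKO crypts were on one side of both Ctrl crypts and both cKO villi on the other side of Ctrl. The difference between the tissues was not tested. Higher in the cKO crypts and lower in the cKO villi were Ndufa13 (log2 differences 1.21 and -1.25), Ndufs6 (1.06 and -0.88), Atp5md (1.05 and -0.92), Cox8a (0.71 and -1.09), mt-Nd3 (0.53 and -0.97) and the regulator Esrra (0.74 and -0.83). Ppargc1a was lower in the cKO crypts and higher in the cKO villi (-0.40 and 0.44). In all of these genes but mt-Nd3 the crypt difference came mostly from cKO replicate 1. For Ndufs6, Cox8a and Ppargc1a, cKO replicate 2 lay right next to the Ctrl range. The 5 members among the 7 genes were all the members whose crypt groups did not overlap. The first pattern was shown by 673 of the 11227 genes in both tables (5.99%), which was 62.4% of the 1078 genes higher in both cKO crypts, and the second by 780 genes (6.95%), which was 61.7% of the 1265 lower in both. Of all 101 members, 92 were below Ctrl in both cKO villi.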

How the results depend on the processing

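Counts and medians in the crypts depended on the libraries used. Leaving out each library in turn gave 0 to 47 genes called higher, 0 to 5 called lower and 0 to 77 with an adjusted p under 0.05, the upper ends all without cKO replicate 2. Each of these fits leaves 1 library in a group, with no replicate beside it. Without cKO replicate 2 the calls rose over all genes as well, and the counts of that fit are not read as a result about these genes. With no library left out, DESeq2 called 4 of the 99 genes higher, and 65 of all 11554 in either direction. Blocking on the replicate number gave 5 genes called higher and 2 with an adjusted p under 0.05. Over all genes the block called 78 in either direction, and 34 had an adjusted p under 0.05. The replicate numbers mark no known pairing, and the deviations of same-numbered libraries from their group means had a correlation of 0.25 across genes. With the length correction the block called 0 of the 99 and 33 of all 11546 genes. The log2 fold change of Atp5k, 1.09, ranged from -0.079 without cKO replicate 1 to 2.27 without cKO replicate 2. The nuclear median ranged from -0.20 to 1.03 and the mt- median from -0.87 to 0.46 when 1 library was left out, and filters and pseudocounts kept their signs. The mt- median was -0.075 with edgeR and -0.076 with DESeq2, close to 0, and the nuclear median was 0.52 with both. The crypt nuclear share difference ranged from -0.20 to 0.91 percentage points, the mt- share difference from -5.06 to 3.64 and the log2 ratio from -2.17 to 0.76.

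In the villi the nuclear median was -0.58 with library size alone, -0.27 with the length correction and -0.19 with principal lengths, and the mt- median was 0.43 and 0.33 with these 2 corrections; the cause was not tested. The villus nuclear share difference was -1.07 percentage points and -1.38 without mt- genes in the total. The median nuclear villus minus crypt difference was 1.51 with that total in place of 1.25. Of the named genes, 50 of 62 in the crypts and 49 of 64 in the villi kept their sign under the length correction, and 18 of 62 without cKO replicate 1. Depth limits the genes with few reads, such as Cox6a2, Cox6b2 and mt-Nd4l, and no alternative makes up for the 1 distinct Ctrl villus library.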
